A study of Rattus norvegicus and Mus musculus with 74 samples.

Results

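Microglia are the resident macrophages of the brain. They depend on the growth factor receptor Csf1r, read neuronal signals through the fractalkine receptor Cx3cr1 and the nucleotide receptor P2ry12, and clear synapses and debris with complement and phagocytic receptors. The 10 genes described here are widely used markers of these cells. They comprise the 3 receptors above, the surface proteins Tmem119, Itgam (the CD11b chain of complement receptor 3) and Trem2 (a lipid-sensing receptor), the cytoskeletal protein Aif1 (Iba1), the lysosomal protein Cd68, and C1qa and C1qb, which encode chains of the first complement component. The genes were taken by name from the regions that the deposited tables list with genes, and each gene took the listed region with the highest mean signal over all libraries of its species. In the rat 10 of 20110 genes were members, in 9 of 13757 gene-bearing regions, since C1qa and C1qb lay in 1 region. In the mouse 9 of 23362 genes were members, in 8 of 14500 regions, and Trem2 was not analysed here.

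Chromatin immunoprecipitation with sequencing measured 4 histone marks in brain cortex. H3K4me3 sits at active promoters, H3K9Ac at active promoters and enhancers, H3K27me3 at genes held silent by Polycomb, and H3K9me3 in heterochromatin. Sprague-Dawley rats were healthy controls given vehicle, offspring exposed to valproate (VPA) before birth and given vehicle, or VPA-exposed offspring given TAK-418. C57BL/6J mice formed the same 3 groups, with prenatal poly I:C, a double-stranded RNA mimic of viral infection, in place of VPA. TAK-418 inhibits LSD1 (Kdm1a), a demethylase of H3K4, and no control group of unexposed animals given TAK-418 was analysed here. Each group had 3 libraries per mark, or 72 in all. The sources used here give neither ages nor doses. Nothing in the labels ties each library to its own animal. The p-values thus reflect the spread among these samples alone, and that spread may be technical.

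Values are the mean signal of a library over a region, in the units of the deposited tables. Read depth is unknown, so no counting error can be given. Rat and mouse signal came from different tables and are compared here only as ranks. Libraries of 1 group differed in their overall level. For H3K9Ac in VPA vehicle rats, the median over genes was 12.4, 13.5 and 7.40. For H3K4me3 in control mice it was 11.9, 6.88 and 6.40.

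Few members had a region of their own. Rat P2ry12 did, with a region of 5199 bp that holds its start (rn5, chromosome 2, 168871800 to 168876999) and no CpG island. Of the members, 10% in the rat and 11.1% in the mouse were alone in their region, against 40.9% and 32.1% of all genes. The median member lay in a region of 43699 bp in the rat and 50799 bp in the mouse, against 11999 and 15799 bp for all genes. Aif1 stands in the class III part of the major histocompatibility complex, and its region held 25 genes in the rat (chromosome 20, 7056400 to 7255199) and 22 in the mouse (mm10, chromosome 17, 35038600 to 35190999). Cd68 shared its region with 7 rat genes, among them the translation factor Eif4a1, on chromosome 10 from 55999000 to 56047799. The C1q genes shared theirs with the ephrin receptor Epha8 and the zinc finger gene Zbtb40, on rat chromosome 5 from 158980200 to 159127799 and mouse chromosome 4 from 136819800 to 136991999. Values of such members are those of the whole region and cannot be assigned to the microglial gene alone.

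For 4 members more the region bears on how a value is read. Tmem119 shared its region with Selplg, another gene highly expressed in microglia, and with housekeeping neighbours such as Iscu and Sart3 (rat chromosome 12, 50352800 to 50456599; mouse chromosome 5, 113714600 to 113821399). Rat Cx3cr1 took a region that holds the ribosomal protein gene Rpsa and not its own start (chromosome 8, 127963400 to 128000199). The region over the start of rat Cx3cr1, from 127938200 to 127962599, listed no other gene. Mouse P2ry12 took a region 53232 bp from its start that also lists P2ry13 (chromosome 3, 59207200 to 59211999), and mouse Itgam one inside the gene, 51859 bp from its start (chromosome 7, 128110200 to 128118799). Rat Csf1r (chromosome 18, 55661000 to 55699599), Itgam (chromosome 1, 206516600 to 206534599) and Trem2 (chromosome 9, 13533000 to 13541599) had regions that hold their starts and no CpG island, each shared with 1 other gene. Mouse Cx3cr1 was in a region that holds its start and lists Ccr8 as well (chromosome 9, 120063400 to 120089599).

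In control cortex, the marks of active promoters were in the lower part of the genome-wide ranking over most members, and H3K27me3 was in the upper part. A percentile here is the rank of a gene's mean signal among all genes of its species in the same library. These ranks depend on which region each gene takes. With the region nearest the start used for every gene, 46 of 76 member percentiles were counted as moved and 30 as the same. For H3K4me3 the median member stood at percentile 27.1 ± 0.693 in rat controls and 31.0 ± 0.507 in mouse controls (SD, n = 3 each). For H3K9Ac it stood at 32.3 ± 1.21 and 33.5 ± 1.38. For H3K27me3 it stood at 69.6 ± 3.04 and 80.6 ± 2.97, and for H3K9me3 at 52.1 ± 9.07 and 43.0 ± 11.8. Cortex holds many cell types, and in bulk tissue fewer microglia and less signal per cell cannot be told apart.

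**Figure D1:**
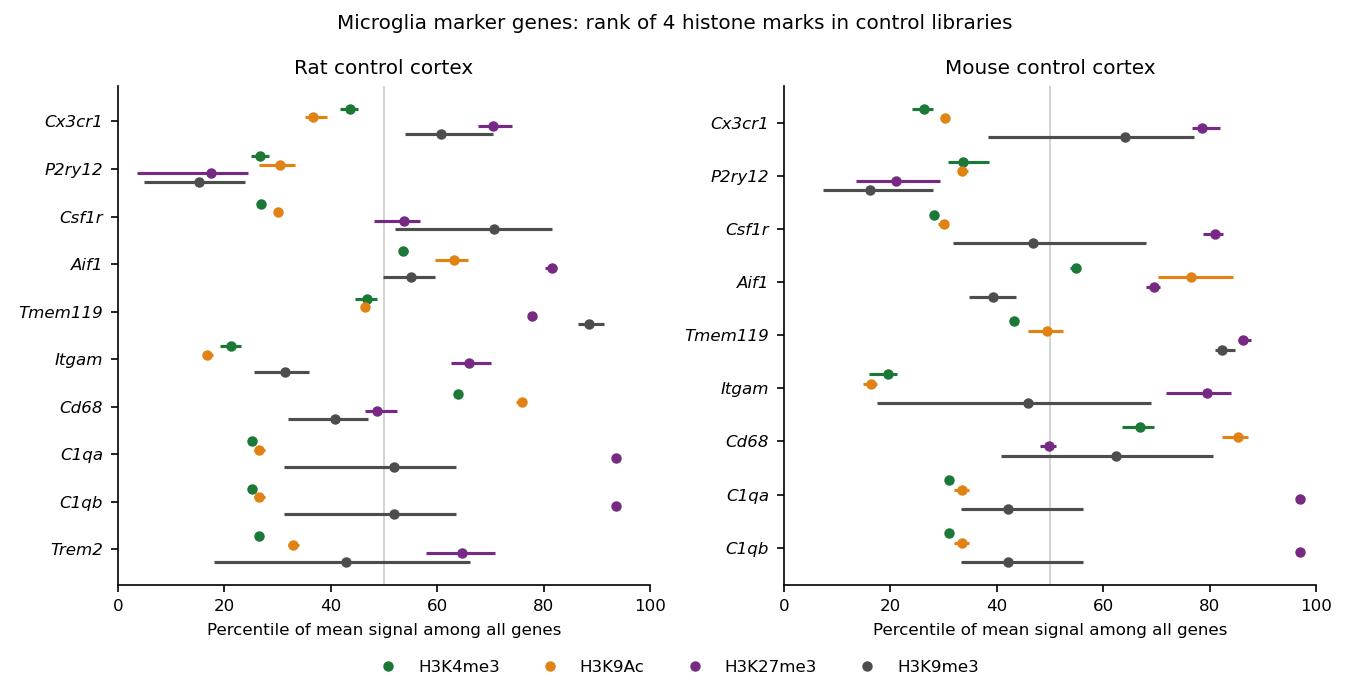
Percentile of the mean signal of each member among all genes of its species (x axis) in the 3 control libraries of rat (left) and mouse (right), for 4 marks. Points are means and bars run from the lowest to the highest library. In both species the means of Cd68 and Aif1 lie above percentile 50 for H3K4me3 and H3K9Ac and those of all other members below it, while C1qa and C1qb are at the far right for H3K27me3.

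The top and the bottom of the order of members were alike in both species, and the middle differed. Cd68 was highest for H3K9Ac, at percentile 75.9 in rats and 85.4 in mice, followed by Aif1 at 63.1 and 76.6 and Tmem119 at 46.4 and 49.4. Cd68 and Aif1 share their regions with 7 or more genes in both species. The regions of the C1q genes hold 5 and 6 genes and those of Tmem119 hold 5 and 7. Whether the number of genes in a region bears on its rank was not tested. Itgam was lowest, at 16.8 and 16.4. P2ry12 was at 30.6 and 33.5, Csf1r at 30.2 and 30.1, Cx3cr1 at 36.7 and 30.3, C1qa and C1qb at 26.6 and 33.5, and rat Trem2 at 32.9. The ranges of P2ry12 and Csf1r overlapped in rat controls, so these neighbours in the order did not differ beyond their spread. For H3K4me3 the order again ran from Cd68 (64.0 and 66.9) and Aif1 (53.7 and 54.9) down to Itgam (21.4 and 19.5).

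H3K27me3 separated the members in another way. C1qa and C1qb, in a region with the receptor gene Epha8, were at percentile 93.5 in rats and 96.9 in mice. Their signal was 9.28, 11.9 and 4.45 in the 3 rat controls and 5.68, 8.85 and 9.55 in the 3 mouse controls. P2ry12 was at the other end, at percentile 17.5 in rats and 21.1 in mice, with signal of 1.00, 2.07 and 1.25 in rat controls, where 1 is the lowest value above 0 that the table holds. Over the start of mouse P2ry12 itself the percentile was 48.6. Tmem119 (77.8 and 86.3) and Aif1 (81.6 and 69.6) were high in both species, and Cd68 (48.7 and 49.9) was in the middle. Csf1r stood at 53.8 in rats and 81.0 in mice. P2ry12 was also lowest for H3K9me3 (15.3 and 16.3) and Tmem119 highest (88.5 and 82.4).

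Called intervals were incomplete over the members. In all 3 controls an H3K4me3 interval was called over 7 of 10 rat and 6 of 9 mouse members, and the same counts held for H3K9Ac. An H3K27me3 interval was called in all 3 controls over 5 and 4 members, and an H3K9me3 interval over 1, Tmem119, in each species. The share of all genes with an interval in all 3 controls was not computed, so these counts are no trait of the members. Rat Trem2 had no H3K4me3 interval in control or TAK-418 libraries and one in 2 of 3 VPA vehicle libraries. Itgam had none for H3K4me3 in either species except in 1 rat TAK-418 library. A gene was tested for a mark where at least 3 of its 9 libraries had an interval, which left 8, 9, 6 and 4 rat members for H3K4me3, H3K9Ac, H3K27me3 and H3K9me3, and 7, 6, 6 and 1 mouse members. Of all 20110 rat genes this left 15287, 15368, 7816 and 4986 in the same order of marks. Of all 23362 mouse genes it left 17446, 16663, 7732 and 4184. C1qa and C1qb share a region and all its values, yet are counted as separate members. Counts and medians of members that hold both are thus not all of separate measurements.

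Other lists of cell type genes give these ranks a scale. The microglial transcription factors, among them Spi1 (PU.1) and Irf8, had a median H3K27me3 percentile of 93.3 in rats and 92.4 in mice, and all of them lay in regions with a CpG island. Of the members, 60% in rats and 55.6% in mice did, against 68.1% and 69.7% of all genes. Other homeostatic microglia genes were at 30.2 and 33.5 for H3K9Ac, and genes of disease-associated microglia at 33.7 and 35.9, close to the members' 32.3 and 33.5. Neuron markers were at 48.8 and 67.2 for H3K9Ac, astrocyte markers at 46.4 and 41.5, and endothelial markers at 29.2 and 28.1. Border macrophage markers were at 21.3 and 23.3 and markers of blood monocytes and neutrophils at 21.2 and 22.9. For H3K27me3 the other lists were also in the upper part in most cases, with neuron markers at 79.6 and 69.1, astrocyte markers at 83.1 and 81.9, endothelial markers at 86.2 and 79.4 and monocyte and neutrophil markers at 80.2 and 73.8, so the members' 69.6 and 80.6 lay among them. These medians are descriptions of lists and were not tested against each other.

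Promoters of the members were read from RefSeq on the rat build GRCr8, which is not the build of the tables, for the 7 of 10 members that matched. P2ry12, Aif1 and Tmem119 are not among them. In the first 250 bases of the promoter window the median member held 3 CpG dinucleotides (range 3 to 5), against 5 for all 33469 rat promoters. PU.1, the factor that establishes the microglial and macrophage state, binds purine-rich sites with the core GAGGAA. This core or its reverse complement TTCCTC was found in 5 of 7 member promoters (2 matches each in Csf1r, Itgam and C1qb, 1 each in Cd68 and Trem2, none in C1qa and Cx3cr1), against 23.3% of all rat promoters. A match is a description of letters and not a bound site. The 250 bases run past the outermost annotated start in Csf1r, Itgam and Trem2, and lie wholly past it in Cx3cr1. Not all matches are thus upstream of that start. The 5 sequences below are those with at least 100 bases before the outermost annotated start, and they show which of these members have the core and which do not. Csf1r (23 bases) and Cx3cr1 (0 bases) fell short of that length. Each runs 5′ to 3′ in the direction of the gene, ends at or before its outermost annotated start, and has the core in capitals. The Itgam and Trem2 windows were cut at that start to 154 and 232 bases, and the printed Itgam stretch holds 1 of its 2 matches. The positions are chr1:192089342-192089495 on the + strand for Itgam, and on the - strand chr10:54882442-54882691 for Cd68, chr5:154419934-154420183 for C1qa, chr5:154407828-154408077 for C1qb and chr9:20151798-20152029 for Trem2.
Itgam: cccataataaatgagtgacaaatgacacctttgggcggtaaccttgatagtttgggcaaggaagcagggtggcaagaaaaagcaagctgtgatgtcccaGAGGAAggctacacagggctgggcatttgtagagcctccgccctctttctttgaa
Cd68: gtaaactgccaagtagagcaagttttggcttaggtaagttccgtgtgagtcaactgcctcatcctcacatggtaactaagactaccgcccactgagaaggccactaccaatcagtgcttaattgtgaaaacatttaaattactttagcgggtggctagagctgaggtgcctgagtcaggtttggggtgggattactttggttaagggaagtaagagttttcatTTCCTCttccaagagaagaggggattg
C1qa: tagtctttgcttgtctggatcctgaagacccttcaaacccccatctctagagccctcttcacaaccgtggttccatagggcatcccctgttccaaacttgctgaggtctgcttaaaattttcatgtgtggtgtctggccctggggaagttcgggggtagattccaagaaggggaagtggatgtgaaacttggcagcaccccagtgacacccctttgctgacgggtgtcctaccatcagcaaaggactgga
C1qb: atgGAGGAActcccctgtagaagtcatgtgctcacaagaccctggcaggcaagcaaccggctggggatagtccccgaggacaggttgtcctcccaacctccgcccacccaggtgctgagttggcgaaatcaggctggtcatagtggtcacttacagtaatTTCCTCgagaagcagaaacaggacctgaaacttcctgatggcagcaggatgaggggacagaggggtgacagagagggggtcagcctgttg
Trem2: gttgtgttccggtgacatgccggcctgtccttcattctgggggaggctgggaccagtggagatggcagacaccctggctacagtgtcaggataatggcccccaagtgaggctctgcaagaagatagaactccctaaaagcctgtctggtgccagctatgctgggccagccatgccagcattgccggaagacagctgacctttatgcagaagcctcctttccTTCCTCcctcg
C1qa and C1qb lie in 1 region and share 1 value for every mark, yet only the C1qb window holds the core in these letters.

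The first comparison asks what prenatal VPA did to the marks. In rat cortex H3K9Ac was higher over 8 of 9 tested members in VPA vehicle than in control libraries, and P2ry12 was the member that did not pass. This shift was that of nearly all genes, since 96.5% of the 15368 genes tested were called higher by limma at an adjusted p under 0.05. The median change of all genes was 0.88 on the scale of log2(signal + 1), on which every change below is given, and that of the tested members 0.84. The count of members that rose is thus near the background. After each library was centred on its median, 0 of 8 of these members were called, and the direction turned for Csf1r (-0.12), Cx3cr1 (-0.084), Trem2 (-0.14) and the C1q genes (-0.015).

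Aif1 rose the most among the members. Its H3K9Ac signal was 7.90, 5.93 and 6.69 in controls, 18.1, 20.1 and 9.69 in VPA vehicle libraries and 10.1, 11.6 and 7.98 after TAK-418. The vehicle libraries all lay above the controls, and the third vehicle library was well below the other two. The change against control was 1.06 ± 0.26 (SE, limma adjusted p = 0.000369). Cd68, a lysosomal glycoprotein of phagocytes, was at 9.47, 7.54 and 8.01 in controls, 20.6, 22.7 and 11.3 with vehicle and 12.3, 13.0 and 9.41 with TAK-418. Here too no vehicle library overlapped the controls (0.99 ± 0.26, adjusted p = 0.000593 by limma). Tmem119 followed with 0.97 ± 0.26 (adjusted p = 0.000558) and the C1qa and C1qb region with 0.84 ± 0.22 (adjusted p = 0.000461, both limma).

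Csf1r, the receptor of the survival factors Csf1 and Il34, was at 3.36, 2.88 and 3.21 in controls, 6.50, 8.12 and 3.80 with vehicle and 4.62, 5.29 and 3.48 with TAK-418. The vehicle libraries were all above the controls (0.74 ± 0.23, limma adjusted p = 0.00203). Trem2, which signals through Tyrobp, was at 3.73, 3.24 and 3.61, then 7.34, 8.69 and 4.08, then 4.50, 5.61 and 4.05 in the same order of groups. Its change was 0.72 ± 0.24 (limma adjusted p = 0.00324). Cx3cr1 was at 4.24, 3.57 and 4.26 in controls and 8.60, 9.59 and 5.17 with vehicle, without overlap (0.77 ± 0.24, limma adjusted p = 0.00237). Over the start of Cx3cr1 alone the change was 0.62, with an adjusted p of 0.0123 by limma. Itgam was not tested, because 0 of 9 libraries had an interval there, and its signal was 1.54, 1.45 and 1.63 in controls and 2.50, 2.67 and 1.81 with vehicle.

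**Figure D2:**
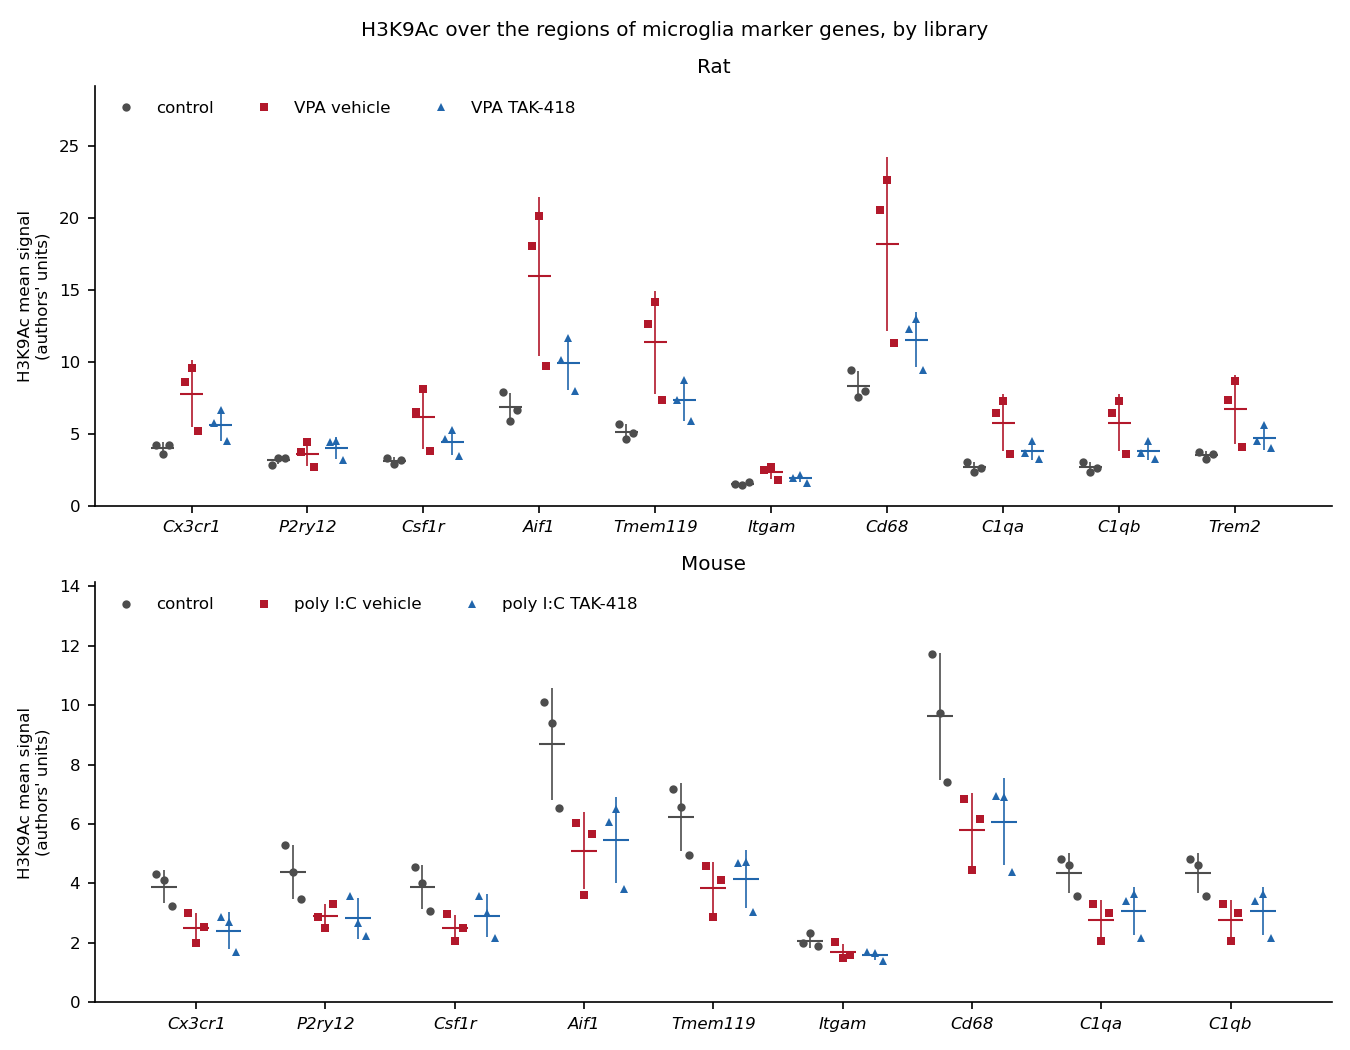
H3K9Ac mean signal (y axis, units of the deposited tables) over each member's region in rat (top) and mouse (bottom) cortex. Each point is 1 library, horizontal lines are means and vertical lines are 1 SD over 3 libraries. In rats the vehicle libraries lie above the controls for all members except P2ry12, whose 3 groups overlap, and in mice the controls lie above the vehicle libraries for all members except Itgam.

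P2ry12 stood apart from the rat members. This nucleotide receptor guides microglial processes to injury and is lost when microglia become activated. Its H3K9Ac signal was 2.86, 3.32 and 3.31 in controls, 3.77, 4.43 and 2.72 with vehicle and 4.43, 4.48 and 3.18 with TAK-418. The groups overlapped, and the change of vehicle against control was 0.14 ± 0.21 (limma adjusted p = 0.507). The overlap of vehicle with control came from the third vehicle library (2.72), and the other vehicle libraries lay above all controls. With 1 library left out, 8 to 9 of the 9 tested members were called. P2ry12 thus passed in some of these fits, and its place apart depends on single libraries. Of the 15368 genes tested, 35 (0.228%) had a smaller change. Csf1r and Trem2, at 3.15 and 3.53 on average in controls, passed the threshold. Their regions, of 38599 and 8599 bp, each list 1 other gene. The part of starting level or region in these changes was not tested. P2ry12 was singled out after its values were seen.

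Relative to the rest of each library, P2ry12 was lower in VPA vehicle libraries than in either other group. Its percentile was 30.6 ± 3.62 in controls, 22.8 ± 0.663 with vehicle and 28.7 ± 1.67 with TAK-418 (SD, n = 3 each), and the vehicle libraries overlapped neither other group. The share of all genes whose percentiles lie apart in this way was not computed. As a share of the library's median signal it was 39.6, 55.1 and 52.7% in controls, 26.2, 28.4 and 30.8% with vehicle and 50.1, 45.6 and 44.3% with TAK-418. The 3 vehicle libraries were the lowest of the 9. After the median of each library was subtracted on the log2 scale (median centring), vehicle differed from control by -0.72 ± 0.11 (adjusted p = 0.00815) and TAK-418 from vehicle by 0.63 ± 0.11 (adjusted p = 0.00521, both limma over 15368 genes). TAK-418 against control gave -0.09 (limma adjusted p = 0.637). The first and second of these share the vehicle libraries and are not independent of each other. As P2ry12 was chosen after its values were seen, these p-values describe its pattern and do not test it.

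P2ry12 was the 1 member of 9 called in these centred fits. They called 10.6% of genes lower for vehicle against control and 9.21% higher for TAK-418 against vehicle, and 0% for TAK-418 against control. With each of the 9 libraries left out in turn, the centred change of P2ry12 ran from -0.84 to -0.64 (adjusted p 0.00181 to 0.0423) for vehicle and from 0.57 to 0.71 (adjusted p 0.00205 to 0.0300) for TAK-418 against vehicle, all by limma. With quantile normalization in place of centring it was -0.48 (adjusted p = 0.0504) and 0.39 (adjusted p = 0.0509), by limma, and neither was past the threshold. The other members lay between -0.14 (Trem2) and 0.20 (Aif1, limma adjusted p = 0.0522) after centring for vehicle against control. An H3K9Ac interval was called over P2ry12 in 2 control libraries, in 0 vehicle libraries and in 2 TAK-418 libraries, so it passed the filter for testing only through the groups where it was relatively high. In a centred fit of all genes with no such filter, added after seeing the data, the changes were -0.65 (adjusted p = 0.0106) and 0.55 (adjusted p = 0.00502), both by limma. As P2ry12 was chosen for this pattern, these p-values describe it and are no independent test. The direction rests on the rescaling, since as deposited the change was 0.14.

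**Figure D3:**
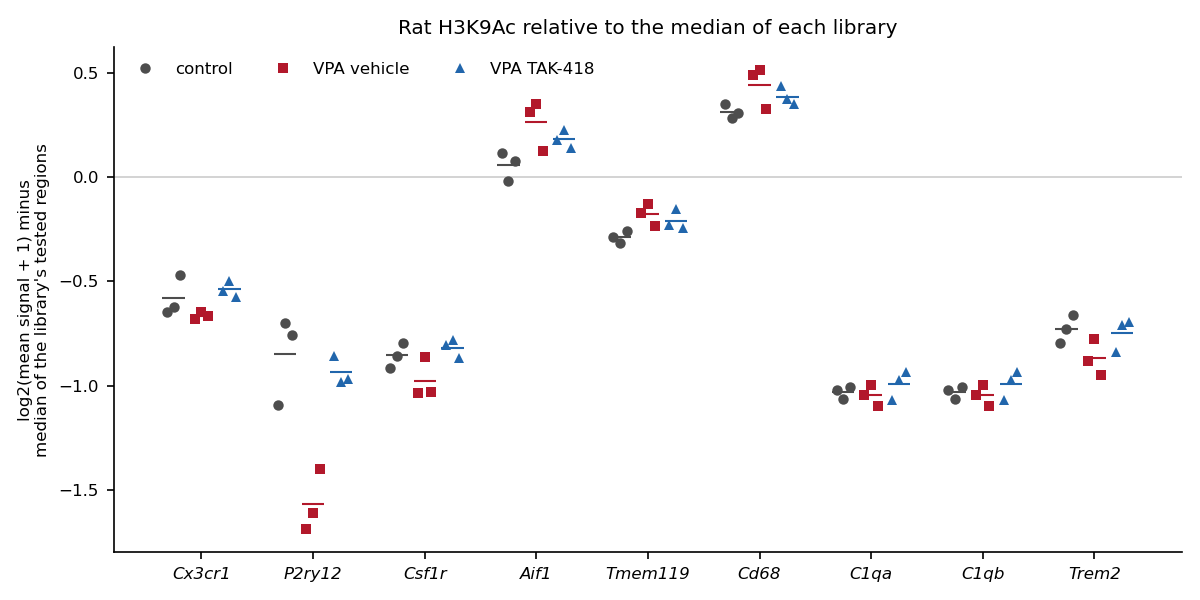
Rat H3K9Ac relative to the median of each library (y axis, log2 of signal + 1 minus the median over the library's tested regions) for the 9 tested members. Points are libraries and lines are means of 3. The VPA vehicle libraries of P2ry12 lie below all its control and TAK-418 libraries, and the groups of the other members lie close together.

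The second comparison asks whether TAK-418 changed the marks in VPA-exposed rats. For H3K9Ac 0 of 9 members were called against vehicle, where 10.5% of all genes were called (1605 lower and 1 higher). At an unadjusted p under 0.05 limma had 5 members and 8551 genes. The 3 members with the smallest p were Aif1 (-0.59 ± 0.26, adjusted p = 0.0710), Cd68 (-0.57 ± 0.26, adjusted p = 0.0760) and Tmem119 (-0.54 ± 0.26, adjusted p = 0.0784), all by limma and near the median of all genes (-0.52). Without the third vehicle library 8 members were called. For this and the other fits below with 1 library left out, the share of all genes called is not given. Such counts are thus no result about the members. P2ry12 changed by 0.12 ± 0.21 (limma adjusted p = 0.576), a value above that of 99.4% of the genes. Against control 0 of 9 members and 0% of genes were called for H3K9Ac (limma; 0 members and 1445 genes at an unadjusted p under 0.05), and without the third vehicle library 8 members were.

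For rat H3K4me3 the groups rose in another order. TAK-418 libraries were highest, and 7 of 8 tested members were called higher than control by limma, where 85.8% of all 15287 genes were. The members' median change was 0.43 and that of all genes 0.61, and 1 of 8 members, Cd68, lay above the latter. With libraries centred on their medians 0 members were called, and Aif1 (-0.043), Tmem119 (-0.059), Cx3cr1 (-0.20), Csf1r (-0.31) and the C1q genes (-0.20) turned direction. Cd68 was at 11.8, 17.3 and 15.2 in controls, 18.9, 20.4 and 19.8 with vehicle and 26.3, 17.6 and 27.6 with TAK-418. Its TAK-418 libraries were all above the controls, with the second close to them (0.65 ± 0.22, limma adjusted p = 0.00817). Aif1 (0.58 ± 0.21, adjusted p = 0.0112) and Tmem119 (0.57 ± 0.21, adjusted p = 0.0118) rose by a like amount, and the C1q region by 0.43 ± 0.14 (adjusted p = 0.00690, all limma).

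For H3K4me3 Cx3cr1 was at 7.07, 10.8 and 7.97 in controls and 12.6, 10.1 and 12.5 with TAK-418, so that the groups overlapped (0.42 ± 0.20, limma adjusted p = 0.0460). Over the start of Cx3cr1 the change was 0.33 and did not pass (limma adjusted p = 0.0506). Csf1r was at 2.59, 2.92 and 3.02 and then 4.13, 3.28 and 3.95, without overlap (0.31 ± 0.15, limma adjusted p = 0.0451). P2ry12 was at 2.89, 2.37 and 2.86 in controls and 3.10, 3.38 and 3.05 with TAK-418, which was not called (0.17 ± 0.15, limma adjusted p = 0.238), and 1.60% of genes had a smaller change. Trem2, not tested for H3K4me3, was at 2.47, 2.99 and 2.74 in controls, 4.75, 4.39 and 3.60 with vehicle and 4.51, 4.26 and 5.24 with TAK-418, with both exposed groups above the controls. The calls rested on single libraries. Without control 1 or TAK-418 library 1, 0 members were called, without control 3, 4, and without TAK-418 library 3, 2.

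In the other H3K4me3 comparisons of rats no member passed. Vehicle against control called 0 of 8 members and 1.64% of genes (limma, 2 members and 6708 genes at an unadjusted p under 0.05), with the smallest p for the C1q region (0.30 ± 0.14, limma adjusted p = 0.103), whose change turned to -0.12 after median centring. Here 6 of 8 tested members had all vehicle libraries above all controls, beside 63.3% of genes, and 5 members were called without control 2 or without TAK-418 library 2. TAK-418 against vehicle called 0 of 8 members and 0.137% of genes (limma, 0 members and 798 genes at that unadjusted p). TAK-418 libraries lay wholly above controls for 7 of 8 members, beside 57.6% of genes. For H3K9Ac the same held of 8 of 9 members for vehicle (94.3% of genes) and of 7 of 9 for TAK-418 (51.8% of genes).

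**Figure D4:**
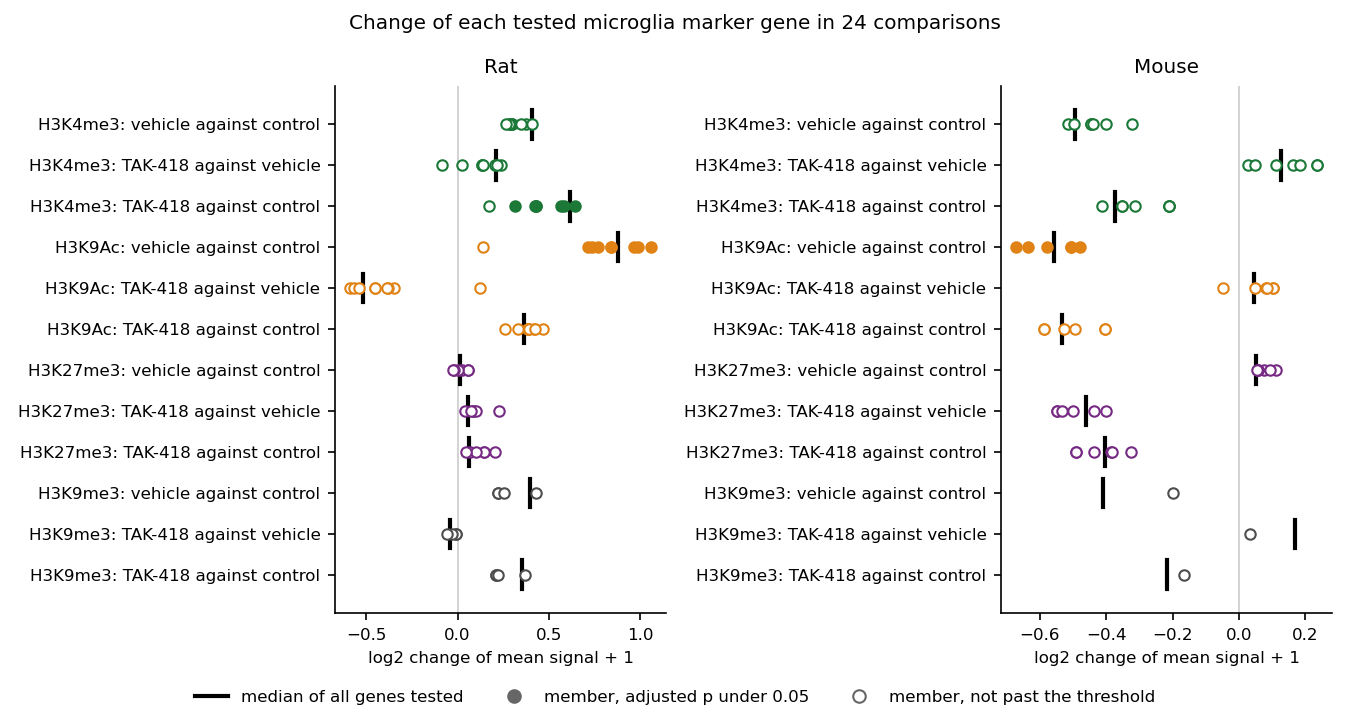
Change in log2(mean signal + 1) (x axis) of each tested member in the 3 comparisons of each mark, for rat (left) and mouse (right). Filled points are members with a limma adjusted p under 0.05, open points the other tested members, and black bars the median of all genes tested. For rat H3K9Ac 1 open point, P2ry12, lies apart at 0.14 and 0.12. Members also lie off the bars elsewhere. For rat H3K4me3 with TAK-418 against control their median is 0.43 and the bar is at 0.61. For rat H3K9me3 with vehicle against control these are 0.24 and 0.40.

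In mouse cortex the H3K9Ac comparison went the other way. Poly I:C vehicle libraries were lower than controls over 6 of 6 tested members by limma, where 67.2% of 16663 genes were lower. The members' median change was -0.54 and that of all genes -0.56, and after median centring 0 members were called, with the direction turned for Cx3cr1 (0.061) and the C1q genes (0.036). Aif1 was at 10.1, 9.39 and 6.54 in controls, 6.02, 3.61 and 5.65 with vehicle and 6.08, 6.50 and 3.82 with TAK-418. All vehicle libraries lay below all controls (-0.67 ± 0.25, limma adjusted p = 0.0289). Cd68 was at 11.7, 9.73 and 7.42, then 6.83, 4.44 and 6.17, then 6.94, 6.92 and 4.38 (-0.64 ± 0.26 for vehicle, limma adjusted p = 0.0334).

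The other mouse members moved by a like amount. Cx3cr1 was at 4.30, 4.11 and 3.25 in controls, 3.00, 2.01 and 2.53 with vehicle and 2.86, 2.69 and 1.70 with TAK-418 (-0.48 ± 0.17 for vehicle, limma adjusted p = 0.0289). Tmem119 fell by 0.58 (SE 0.23, limma adjusted p = 0.0291) and the C1q region by 0.51 (SE 0.19, limma adjusted p = 0.0289). All of these calls were lost without control 1, control 2, vehicle library 2 or vehicle library 3, each of which left 0 members called. Csf1r, also not tested, was at 4.56, 4.01 and 3.08 in controls and 2.96, 2.06 and 2.50 with vehicle, without overlap. P2ry12, with 0 intervals in the 9 libraries, was not tested. Its signal was 5.29, 4.39 and 3.49 in controls, 2.88, 2.49 and 3.30 with vehicle and 3.59, 2.67 and 2.23 with TAK-418, and its percentile was 33.5 ± 1.03, 33.9 ± 4.45 and 31.5 ± 4.33 (SD, n = 3 each). The percentiles of the 3 groups overlapped, whereas in rats those of the vehicle libraries overlapped neither other group. How common that is among all rat genes was not computed. The mouse region lies 53232 bp from the start of P2ry12 and also lists Med12l and P2ry13. The rat region holds the start and lists P2ry12 alone, so these values are not like for like.

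No mouse member passed for TAK-418 against vehicle. For H3K9Ac 0 of 6 members and 0% of genes were called by limma (0 members and 5 genes at an unadjusted p under 0.05). Against control 0 of 6 members and 0% of genes were called by limma, with adjusted p-values of the members from 0.0522 to 0.0538 (6 members and 13031 genes had an unadjusted p under 0.05). Without control 3 or vehicle library 2 all 6 were called. The vehicle libraries lay below the controls for 6 of 6 members and the TAK-418 libraries for 4 of 6, beside 75.8% and 75.4% of genes.

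For mouse H3K4me3 0 of 7 members were called in any comparison, where limma called 0% of genes for vehicle against control, 0% for TAK-418 against vehicle and 0.00573% (1 gene) for TAK-418 against control. At an unadjusted p under 0.05, 6 of 7 members and 7856 genes were lower with vehicle than in controls, and the members with the smallest p were Csf1r (-0.40 ± 0.17) and the C1q genes (-0.45 ± 0.19), with limma adjusted p = 0.110 for each. After median centring these turned to 0.093 for Csf1r and 0.047 for the C1q genes, with 0 of 7 members at an unadjusted p under 0.05 by limma. For TAK-418 against vehicle 0 members and 75 genes had such a p by limma, and for TAK-418 against control 1 member and 735 genes. Control 1 was far above the other controls, for Cd68 at 18.0 against 9.00 and 8.89, and all 3 vehicle libraries of Cd68 (8.52, 7.57 and 8.22) still lay below them. Vehicle libraries lay below controls for 6 of 7 members and TAK-418 libraries for 2 of 7, beside 58.7% and 26.8% of genes. Without control 3, 6 members were called for vehicle against control.

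H3K27me3 over the members did not pass the test in either species. In rats 0 of 6 members and 0% of genes were called in each of the 3 comparisons (limma, with 0 genes at an unadjusted p under 0.05). The C1q region had 8.01, 10.8 and 6.56 with vehicle and 15.2, 6.71 and 6.73 with TAK-418, against 9.28, 11.9 and 4.45 in controls, so that the groups overlapped and TAK-418 library 1 was the highest. Its change was 0.06 ± 0.45 for vehicle against control, and Itgam, with the smallest p for TAK-418 against vehicle, changed by 0.23 ± 0.33. The standard errors of the members ran from 0.33 to 0.45, and changes of that size were not detectable.

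In mice the C1q region had 5.68, 8.85 and 9.55 in controls, 14.7, 10.5 and 3.35 with vehicle and 4.47, 5.56 and 5.95 with TAK-418. The vehicle libraries spanned both other groups. Limma called 0 of 6 members and 0% of genes in each comparison. At an unadjusted p under 0.05 there were 0 members in all 3, and 0, 73 and 19 genes for vehicle against control, TAK-418 against vehicle and TAK-418 against control. Cx3cr1 was at 3.32, 5.00 and 4.65 in controls and 2.63, 2.93 and 3.14 with TAK-418, which lay below all controls (-0.44 ± 0.34, limma adjusted p = 0.368). This absence of overlap held for 2 of 6 tested members, Cx3cr1 and Aif1, beside 60.7% of genes. Without vehicle library 3, 6 members were called lower with TAK-418 than with vehicle. With all libraries, 0% of the 7732 genes tested had a positive change in this comparison, so the members moved with all genes.

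**Figure D5:**
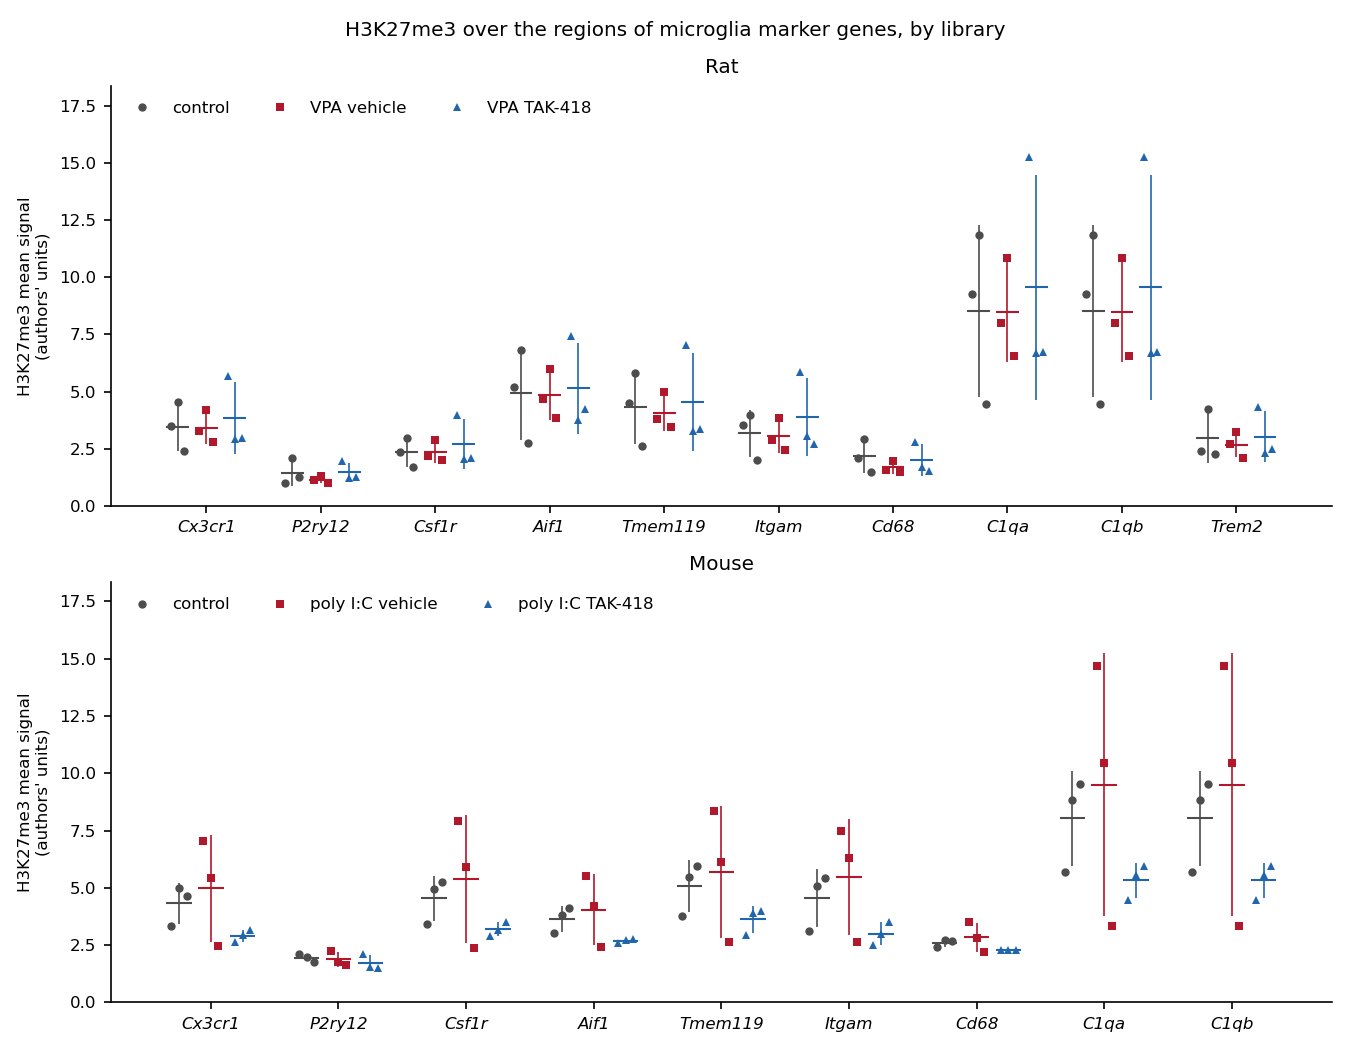
H3K27me3 mean signal (y axis, units of the deposited tables) over each member's region in rat (top) and mouse (bottom) cortex. Each point is 1 library, horizontal lines are means and vertical lines are 1 SD over 3 libraries. C1qa and C1qb, which share 1 region, are highest and P2ry12 lowest, and the vehicle libraries of the mouse spread widest.

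H3K9me3 was tested over few members. In rats it was called over 0 of 4 for vehicle against control, where 45.6% of 4986 genes were called, all higher, and 3 members and 3368 genes had an unadjusted p under 0.05 by limma. The smallest p-values were those of the C1q genes (0.22 ± 0.11, adjusted p = 0.0622) and Tmem119 (0.43 ± 0.21, adjusted p = 0.0631, both limma). After median centring both turned direction, to -0.25 and -0.040, and the members' median went to -0.23, with 0 of 4 called and 3 at an unadjusted p under 0.05 by limma. Tmem119, the member with the most H3K9me3, was at 2.01, 2.74 and 2.46 in controls, 3.61, 3.95 and 3.16 with vehicle and 4.25, 3.22 and 2.79 with TAK-418. All libraries of both exposed groups lay above the controls. This held of 4 of 4 tested members for vehicle, beside 86% of genes, and of 1 of 4 for TAK-418, beside 55% of genes. TAK-418 against control called 0 of 4 members and 18.1% of genes (limma, 2 members and 2745 genes at an unadjusted p under 0.05), and TAK-418 against vehicle 0 of 4 and 0% (limma, 0 members and 14 genes at an unadjusted p under 0.05). Without TAK-418 library 3, 4 members were called in both comparisons with control, and without TAK-418 library 1, 4 were for vehicle. In mice Tmem119 was the 1 member tested and was not called in any comparison, with 0% of genes called in each by limma (0 members in all 3, and 6, 0 and 0 genes for vehicle against control, TAK-418 against vehicle and TAK-418 against control at an unadjusted p under 0.05).

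The other gene lists are given as counts of called genes among those tested, beside 96.5% of all genes for rat H3K9Ac with vehicle, 85.8% for rat H3K4me3 with TAK-418 and 67.2% for mouse H3K9Ac with vehicle, each against control. The lists overlap in part, since Csf1 and Sall1 are in more than 1 and Selplg and C1qc lie in regions of members. For rat H3K9Ac, vehicle against control, 8 of 9 other homeostatic microglia genes were called higher, with Ltc4s (leukotriene synthesis) at 1.21 ± 0.26. Of the microglial transcription factors 8 of 9 were, with Spi1 at 0.97 ± 0.26 and Sall1 at 0.71 ± 0.24. All 14 tested genes of microglial signalling were, with the ligands of Csf1r, Csf1 at 0.94 ± 0.26 and Il34 at 1.02 ± 0.26. Of disease-associated microglia genes 9 of 10 were, led by the lipid carrier Apoe at 1.19 ± 0.26. The medians of these lists were 0.84, 0.71, 0.90 and 0.83, against 0.88 for all genes.

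For that comparison 8 of 9 neuron, 9 of 10 astrocyte, 7 of 9 oligodendrocyte, 4 of 5 endothelial, 2 of 2 border macrophage and 2 of 3 monocyte and neutrophil genes were called higher, with medians from 0.73 to 0.96. For rat H3K4me3 with TAK-418 against control, 7 of 9 other homeostatic, 8 of 9 transcription factor, 14 of 14 signalling and 10 of 10 disease-associated genes were higher. Examples were Mertk (0.77 ± 0.23) and Ctsd (0.80 ± 0.22). For mouse H3K9Ac with poly I:C, 7 of 8, 6 of 7, 8 of 12 and 7 of 8 of these lists were lower, among them Irf8 (-0.41 ± 0.15), Itgb2 (-0.61 ± 0.23) and Ctsd (-0.75 ± 0.25). Itgb2 encodes the partner chain of Itgam. The part of cell type makeup in these changes was not tested.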

How the data were processed

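H3K4me3, H3K9Ac, H3K27me3 and H3K9me3 were measured by ChIP-seq of brain cortex in 72 libraries, from 30 ug of chromatin per the labels' protocols. The deposited values are signal: the authors' mean signal per region and library, with called intervals flagged. BWA 0.7.12 and the builds mm10 and rn5 are named in the submitters' processing notes, while the sources used here give no peak caller, binning or scaling between libraries. Pooled inputs were not used, 0 columns were left unmatched, and 0 pairs of libraries were identical.

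Each gene took its region with the highest mean. Signal was tested as log2(signal + 1) with limma 3.58.1 (R 4.3.3; trended and robust), 1 model per species and mark over 9 libraries, for genes with an interval in at least 3, with Benjamini-Hochberg adjustment over all tested genes at 0.05. The spread was pooled almost wholly over genes (for rat H3K9Ac, 15366 of 15368 genes had infinite prior degrees of freedom), which makes single-gene errors lean on all genes. The fitting code was run on simulated data in which each gene varied independently. Those data lacked the shift of whole libraries seen here, so they cannot show how the calls behave under it. Python 3.11.15, numpy 2.4.6, pandas 2.3.3 and matplotlib 3.10.9 were used.

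Members, lists and the promoter motif were chosen with earlier results of these data known. Every member is named by level. Changes are given for members past the threshold, or else for at most 3 with the smallest p, and up to 4 called genes of other lists are named by control signal. The unpassed values of P2ry12 were chosen after they were seen. Alternatives were median centring, quantile normalization, a pseudocount of 0.5, no filter, a replicate block, only the 6 libraries compared, the region nearest the start, the highest signal in a region, and each library left out. The centred fits of P2ry12 under further settings were added after seeing the data.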

Additional observations from a re-analysis of the deposited data

How the results depend on the processing

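Counts of called members were within 1.5 times those reported in 12 of 24 comparisons under all 17 settings. All of these 12 had 0 members called, and every comparison with called members moved under some setting. Below, the value reported comes first, and the cause of a move was not tested. The share of all genes called is not given beside these counts, so they are no result about the members. Rat H3K4me3, vehicle against control (0): 2 with only the 6 libraries compared, and 0 to 5 with 1 library left out. TAK-418 against control (7): 0 with median centring, 0 with quantile normalization, 0 to 7 left out. Rat H3K9Ac, vehicle against control (8): 1 with median centring (P2ry12, lower), 0 with quantile normalization, 8 to 9 left out. The count of 9 includes P2ry12, since 9 members were tested. TAK-418 against vehicle (0): 1 with median centring, 5 with the replicate block, 7 with the highest signal, 0 to 8 left out. TAK-418 against control (0): 6 with only the 6 libraries, 0 to 8 left out. Rat H3K9me3, vehicle against control (0): 4 with only the 6 libraries, 1 with the highest signal, 0 to 4 left out. TAK-418 against control (0): 0 to 4 left out. Mouse H3K4me3, vehicle against control (0): 0 to 6 left out. Mouse H3K9Ac, vehicle against control (6): 0 with median centring, quantile normalization or the highest signal, 0 to 6 left out. TAK-418 against control (0): 6 with the replicate block, 0 to 6 left out. Mouse H3K27me3, TAK-418 against vehicle (0): 0 to 6 left out. TAK-418 against control (0): 5 with only the 6 libraries. Reversed log2 changes with quantile normalization were, for rat H3K4me3 with TAK-418 against control, Aif1 -0.047, Csf1r -0.17, Cx3cr1 -0.19 and Tmem119 -0.051, and for rat H3K9Ac with vehicle against control Trem2 -0.011. With median centring they were Aif1 -0.043, C1qa and C1qb -0.20, Csf1r -0.31, Cx3cr1 -0.20 and Tmem119 -0.059 (rat H3K4me3), C1qa and C1qb -0.015, Csf1r -0.12, Cx3cr1 -0.084 and Trem2 -0.14 (rat H3K9Ac), and C1qa and C1qb 0.036 and Cx3cr1 0.061 (mouse H3K9Ac). The change of P2ry12 for rat H3K9Ac with vehicle against control was -0.72 with median centring and 0.14 as deposited, without centring. Same-numbered libraries did not vary together in every pair, so the numbers are no pairing. Read depth is unknown, so no limit from counting can be given.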
